A study of Mus musculus with 2 samples.

Results

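The adhesion receptors of erythroid progenitors described here are 9 integrin chains and the hyaluronan receptor CD44. The alpha chains are Itga4, Itga5, Itga6, Itgav and Itgal, and the beta chains are Itgb1, Itgb2, Itgb3 and Itgb7. The genes were chosen by name, not by their values, though with earlier results of these data known. Each symbol matched 1 gene, giving 10 of the 43346 Ensembl genes in the tables. RNA-seq of polyadenylated RNA was deposited for 2 libraries of G1E-ER4, an immortalized mouse erythroid line labelled male and aged 0 days. Its parent line lacks Gata1, and G1E-ER4 carries a fusion of GATA1 with the hormone-binding part of an estrogen receptor, which estradiol switches on. Both libraries are labelled as Gata1-restored and induced with estradiol, without dose or duration. They are numbered as biological replicates 2 and 1 and cite the same biosample record, so the spread between them may be technical.

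Integrins are pairs of an alpha and a beta chain that hold cells to matrix or to other cells, and each chain needs a partner to reach the surface. On early erythroid cells the pair alpha4beta1 binds fibronectin in marrow matrix and VCAM1 on the macrophage of the erythroblastic island, while alpha5beta1 binds fibronectin. Red cell precursors lose these contacts as they mature and leave the marrow. CD44 binds hyaluronan and is linked to the cortical actin skeleton by the ezrin, radixin and moesin family. With 1 group of samples no condition could be compared, so the values show which receptors these cells carried as RNA, in which annotated transcript forms, and how closely the libraries matched. In bulk RNA, fewer cells that carry a transcript and less of it per cell cannot be told apart.

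The depth was 51923117 estimated counts for replicate 2 and 68901065 for replicate 1. Gata1 stood at 2429.8 TPM (a level per transcript length, scaled to the same total in each library) in replicate 2 and 1498 TPM in replicate 1, with fusion and endogenous reads not separated. All 10 erythroid marker genes, Gata1 and Alad among them, reached 1 TPM in both libraries, the level called detected here. Of 61 marker genes of 7 other cell types 7 did so. They were Gp5, Gp1ba, Itga2b and Treml1 of 12 megakaryocyte genes, the mast cell gene Hdc, the macrophage gene Cd68 and the T cell gene Lck. B cell, endothelial and fibroblast markers were not detected.

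Of the 10 receptor genes 6 were detected, against 39.0% of all protein-coding genes. The beta1 and alpha4 chains were the highest, alphaL, alphav, beta7 and CD44 followed, and beta2, beta3, alpha6 and alpha5 were low or near 0. The TPM of a gene, however, sums all its annotated transcripts, whether or not they can encode the receptor. Transcripts annotated in GENCODE M21 as protein-coding with both ends of the coding sequence present are called complete coding here. They held under 50% of the TPM of Itgb1, Itga4 and Itgav in both libraries, that is of 3 of the 6 detected genes, against 23.7% of all detected protein-coding genes. The median share over all detected protein-coding genes was 97.6% in replicate 2 and 97.5% in replicate 1. Both backgrounds include genes with a single transcript. Several transcripts were listed for 6302 of the 8376 detected protein-coding genes, and for all 6 detected receptor genes. A background of genes with several transcripts only was not computed. The complete coding measure was added after the values were seen.

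**Figure D1:**
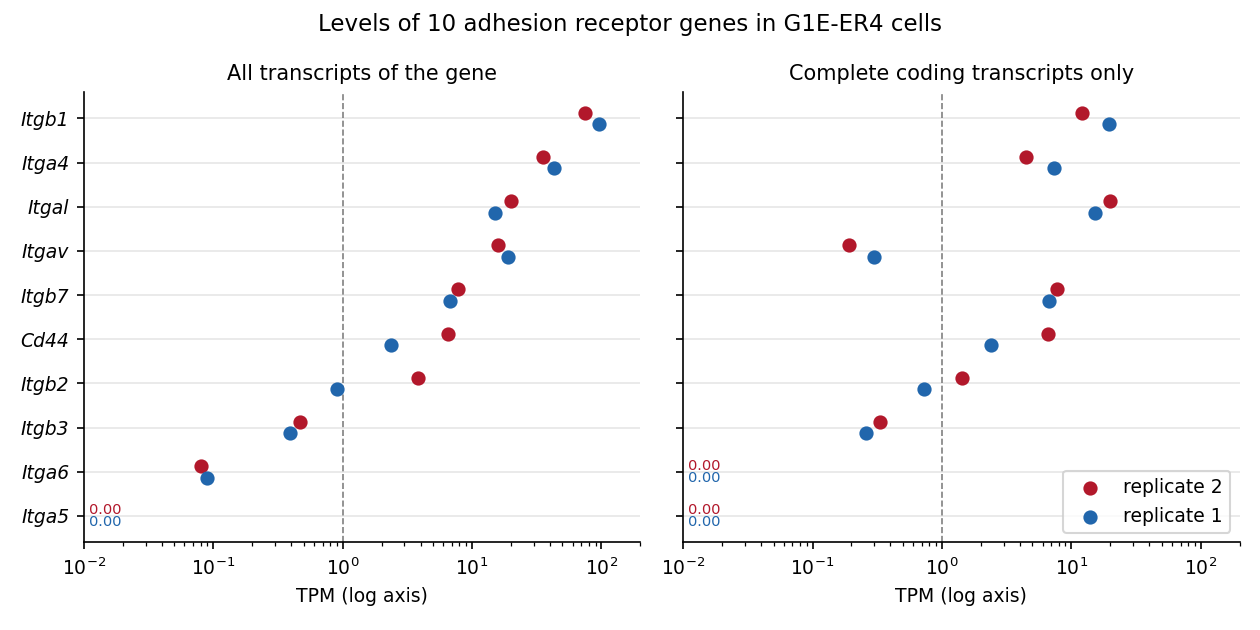
TPM on a log axis for each gene in replicate 2 (red) and replicate 1 (blue), over all its transcripts at left and over complete coding transcripts at right, with a dashed line at 1 TPM and values of 0.00 written at the left edge. Itgb1, Itga4 and Itgav lie further left in the right panel, Itgav at 0.19 and 0.30 TPM, while Itgal, Itgb7 and Cd44 stay in place.

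Itgb1 encodes the beta1 chain, the partner of alpha4, alpha5, alpha6 and alphav. The gene (ENSMUSG00000025809.11) lies on the plus strand of mouse chromosome 8, from 128685654 to 128733200 in mm10. Itgb1 had 74.9 TPM from 9751 counts in replicate 2 and 96.1 TPM from 16893 counts in replicate 1, averaging 85.5 ± 15.0 TPM (SD, n = 2). It was the highest of the receptor genes in both libraries. The transcript model Itgb1-202, annotated as a target of nonsense-mediated decay, took 83.3% of this TPM in replicate 2 and 79.1% in replicate 1. Nonsense-mediated decay is the pathway that degrades messages with a premature stop codon. The complete coding model Itgb1-201 had 12.1 TPM in replicate 2 against 19.5 TPM in replicate 1, which was 16.2% and 20.3% of the gene. Itgb1-202 lacks exon 4 of 16, and that exon of 223 bases is not a multiple of 3, so the reading frame shifts across the new junction. The annotated start codon is then followed by a stop after 58 codons, against 798 codons in Itgb1-201. The skipped exon and the junction are shown because they tell the models apart, with the premature stop codon in capitals. The exon lies at chr8:128710253-128710475 on the plus strand, and all sequences here come from the GENCODE M21 transcripts.
Itgb1-201 exon 4: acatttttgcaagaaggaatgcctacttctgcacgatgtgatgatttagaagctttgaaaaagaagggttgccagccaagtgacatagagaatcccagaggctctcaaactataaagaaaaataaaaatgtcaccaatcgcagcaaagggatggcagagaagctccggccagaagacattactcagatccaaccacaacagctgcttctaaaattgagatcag
Itgb1-202 junction: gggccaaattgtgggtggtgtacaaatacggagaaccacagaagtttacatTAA

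The Itgb1 models also differ at their ends, since Itgb1-201 starts 103 bases earlier and ends 583 bases later. Of the 31-base words in its sequence, Itgb1-202 has only 29 that occur in no other transcript of the gene, while Itgb1-201 has 714. The division of counts between them therefore rests on exon 4, its junctions and the transcript ends. The deposited posterior SD of the Itgb1-202 count was 73.9 in replicate 2, on 7743 counts. Coverage of exon 4 by reads was not analysed here.

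Itga4 encodes the alpha4 chain, which pairs with beta1 or beta7. The gene (ENSMUSG00000027009.14) lies on the plus strand of chromosome 2, from 79255426 to 79333123. Itga4 had 35.6 TPM from 4029 counts in replicate 2 and 42.9 TPM from 7444 counts in replicate 1, averaging 39.3 ± 5.18 TPM (SD, n = 2). Both values lay below those of Itgb1 and above those of every other receptor gene here. The leading model Itga4-204 took 67.5% of the TPM in replicate 2 and 63.6% in replicate 1. It has no coding sequence and ends 864 bases inside the intron after exon 4, with 1508 bases in all against 9767 in the coding model Itga4-201. The models are set side by side from the end of exon 4, with the bases that follow it in capitals.
Itga4-201, exon 5 in capitals: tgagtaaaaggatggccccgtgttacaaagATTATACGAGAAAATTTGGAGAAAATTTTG
Itga4-204, intron in capitals: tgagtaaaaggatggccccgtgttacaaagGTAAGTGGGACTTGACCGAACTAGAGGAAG

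Itga4-201, the only complete coding model of the gene in the tables, had 4.44 TPM in replicate 2 against 7.31 TPM in replicate 1. That was 12.5% and 17.0% of the TPM of Itga4 but 47.7% and 56.8% of its counts. The 2 measures part because TPM divides by length and Itga4-201 is the longest model. Another model without coding sequence, Itga4-205, which starts at the gene's first exon and stops after 2 exons, took 11.6% of TPM in replicate 2 against 11.5% in replicate 1. Cerkl, which overlaps Itga4 on the opposite strand and shares 1067 of its 31-base words, had 4 counts in replicate 2 and 2 counts in replicate 1.

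Itgav encodes the alphav chain, which with beta1, beta3 and other partners binds vitronectin and the latent form of TGF-beta. The gene (ENSMUSG00000027087.7) lies on the plus strand of chromosome 2, from 83724397 to 83806916. Itgav had 15.8 TPM from 505 counts in replicate 2 and 19.1 TPM from 757 counts in replicate 1, averaging 17.4 ± 2.35 TPM (SD, n = 2). Its TPM resembled that of Itgal, but Itgal rested on 3355 and 3379 counts, since the deposited effective length of Itgav was only 712.6 bases in replicate 2 and 659.0 bases in replicate 1. The model Itgav-206, a fragment of 3 exons and 688 bases with an incomplete coding sequence, took 82.2% of TPM in replicate 2 against 95.2% in replicate 1. The complete coding model Itgav-201, with 30 exons and 7054 bases, had 0.19 TPM in replicate 2 against 0.30 TPM in replicate 1. Both values were below 1 TPM, and they made up 1.21% and 1.57% of the gene's TPM. Exon 2 starts 3 bases later in Itgav-206 than in Itgav-201, and those bases are in capitals.
Itgav-201 junction of exons 1 and 2: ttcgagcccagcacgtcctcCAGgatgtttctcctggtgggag
Itgav-206 junction of exons 1 and 2: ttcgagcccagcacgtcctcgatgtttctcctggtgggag

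The junction of Itgav-206 is shared with Itgav-209, and none of its 31-base words is absent from the other transcripts of the gene. Itgav-208, a model that keeps an intron, took 12.8% of the TPM of Itgav in replicate 2 and 0.22% in replicate 1. Of the counts, 11.6% in replicate 2 and 16.5% in replicate 1 went to complete coding models.

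**Figure D2:**
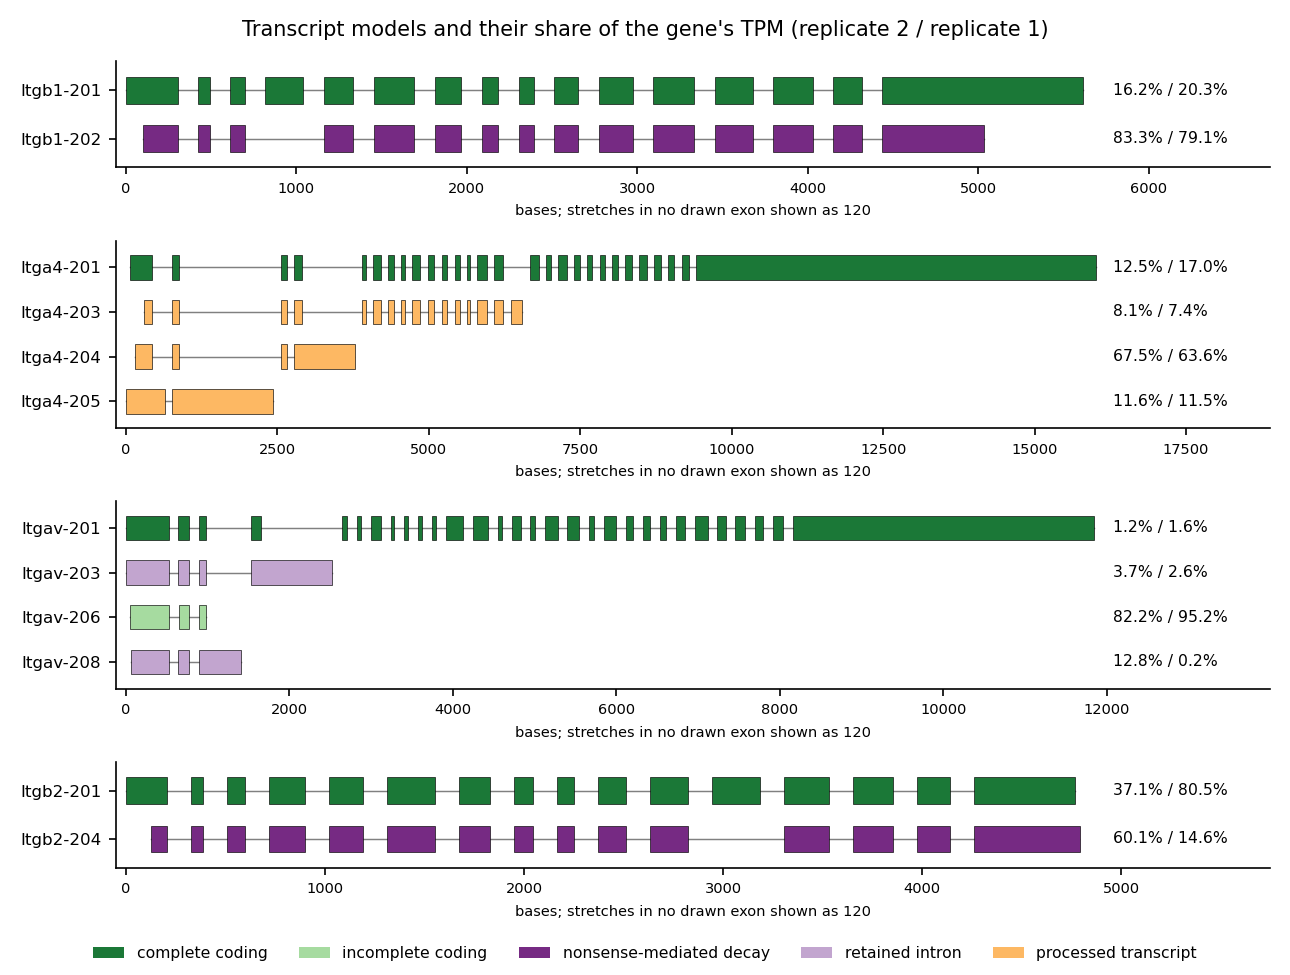
Transcript models of Itgb1, Itga4, Itgav and Itgb2 by annotated class, with exons to scale in bases, stretches that lie in no drawn exon shortened to 120 bases, and the share of the gene's TPM at right (replicate 2, then replicate 1). Itgb1-202 and Itgb2-204 each lack 1 inner exon, and the leading models of Itga4 and Itgav cover only the first exons of their genes.

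Itga5 and Itga6, the alpha chains of the fibronectin receptor alpha5beta1 and the laminin receptor alpha6beta1, were at or near 0. Itga5 (ENSMUSG00000000555.6, minus strand of chromosome 15, 103344286 to 103366763) had 0 counts in replicate 2 and 1 count in replicate 1. With a count of 0 up to 3 counts remain possible, or 0.0158 TPM in replicate 2, counting error only. Itga6 (ENSMUSG00000027111.11, plus strand of chromosome 2, 71745616 to 71858416) had 3 counts in each library, listed as 0.08 TPM in replicate 2 and 0.09 TPM in replicate 1. None of these counts went to a complete coding model of Itga6. Among the detected alpha chains that pair with beta1, Itga4 was 0.476 of the Itgb1 TPM in replicate 2 and 0.447 in replicate 1, while Itgav was 0.210 and 0.198. Over complete coding transcripts the ratio of Itga4 to Itgb1 was 0.366 and 0.375, and that of Itgav to Itgb1 was 0.0157 and 0.0154.

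Itgal and Itgb2 encode alphaL and beta2, which together form LFA-1, the leukocyte receptor for ICAM proteins. Itgal (ENSMUSG00000030830.14, plus strand of chromosome 7, 127296260 to 127335138) had 19.9 TPM from 3355 counts in replicate 2 and 15.2 TPM from 3379 counts in replicate 1. Its mean was 17.5 ± 3.34 TPM (SD, n = 2), all of it in complete coding transcripts. On that scale Itgal was the highest alpha chain described here, above Itga4 in both libraries. Itgal-205, a model of 32 exons, led with 57.8% of TPM in replicate 2 and 76.2% in replicate 1. Itgal-203, a model of 21 exons that starts further inside the gene, took 30.5% in replicate 2 and 13.1% in replicate 1.

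Itgb2 (ENSMUSG00000000290.9, plus strand of chromosome 10, 77530252 to 77565708) had 3.85 TPM from 450 counts in replicate 2 and 0.90 TPM from 144 counts in replicate 1. It passed 1 TPM in replicate 2 only, and was far below its partner in both. The ratio of Itgal to Itgb2 was 5.17 in replicate 2 and 16.9 in replicate 1, and over complete coding transcripts it was 13.9 and 20.8. The leading model differed between the libraries. Itgb2-204, annotated as a target of nonsense-mediated decay, took 60.1% of TPM in replicate 2 against 14.6% in replicate 1. The coding model Itgb2-201 took 37.1% in replicate 2 and 80.5% in replicate 1, which was 1.43 and 0.73 TPM. A leading model that differed was found in 16.8% of detected protein-coding genes with several transcripts. Itgb2 is not among those genes, as it was below 1 TPM in replicate 1. Itgb2-204 lacks exon 12 of 16, an exon of 245 bases at chr10:77559479-77559723, and reaches a stop codon after 480 codons against 770 in Itgb2-201. The exon and the junction that replaces it are printed with the early stop codon in capitals.
Itgb2-201 exon 12: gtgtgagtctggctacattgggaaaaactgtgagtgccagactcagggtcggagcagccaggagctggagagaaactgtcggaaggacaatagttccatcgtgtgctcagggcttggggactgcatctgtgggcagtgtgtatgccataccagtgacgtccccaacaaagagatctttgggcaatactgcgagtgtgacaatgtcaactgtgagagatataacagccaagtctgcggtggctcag
Itgb2-204 junction: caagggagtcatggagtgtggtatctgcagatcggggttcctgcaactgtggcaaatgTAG

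Itgb7 encodes beta7, the other partner of alpha4, known from the gut-homing receptor of lymphocytes. Itgb7 (ENSMUSG00000001281.5, minus strand of chromosome 15, 102215995 to 102231944) had 7.77 TPM from 874 counts in replicate 2 and 6.71 TPM from 1016 counts in replicate 1. The mean was 7.24 ± 0.750 TPM (SD, n = 2), and Itgb7-201, the single complete coding model, held 98.9% of TPM in replicate 2 and 100% in replicate 1. By gene TPM Itga4 stood 4.58 times above Itgb7 in replicate 2 and 6.40 times in replicate 1. Over complete coding transcripts the same ratio was 0.578 in replicate 2 and 1.09 in replicate 1, and that of Itgb1 to Itgb7 was 1.58 and 2.90, against 9.64 and 14.3 by gene TPM.

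Itgb3 encodes beta3, which pairs with alphav or with the platelet chain alphaIIb. Itgb3 (ENSMUSG00000020689.4, plus strand of chromosome 11, 104608000 to 104670476) had 0.47 TPM from 111 counts in replicate 2 and 0.39 TPM from 122 counts in replicate 1, and was not detected. The coding model Itgb3-201 took 70.7% of TPM in replicate 2 against 65.6% in replicate 1, and the model Itgb3-202, which has no coding sequence, took the rest. Its partner Itga2b, the gene of alphaIIb and a megakaryocyte marker, was the only other integrin chain detected of 17 listed. Itga2b had 29.3 TPM in replicate 2 against 18.2 TPM in replicate 1, which was 62.4 and 46.6 times the Itgb3 level. By gene TPM Itgb3 thus lay below both alpha partners in each library. Over complete coding transcripts Itga2b still stood 29.9 times above Itgb3 in replicate 2 and 32.0 times in replicate 1. The ratio of Itgav to Itgb3 on that measure, however, was 0.576 in replicate 2 and 1.15 in replicate 1.

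Cd44 encodes a single-chain receptor whose stem can be lengthened by a block of variable exons. Cd44 (ENSMUSG00000005087.13, minus strand of chromosome 2, 102811141 to 102901665) had 6.57 TPM from 727 counts in replicate 2 and 2.38 TPM from 650 counts in replicate 1, averaging 4.48 ± 2.96 TPM (SD, n = 2). The ratio between the libraries was 2.76 by TPM and 1.60 by scaled counts. The effective length of the gene was 2460.0 bases in replicate 2 and 4544.0 bases in replicate 1, and the leading model differed here too. Cd44-206, a short model of 1305 bases with 1 variable exon, took 59.9% of TPM in replicate 2 against 0.00% in replicate 1. Cd44-207, with 5 variable exons and 5045 bases, took 30.4% in replicate 2 and 76.5% in replicate 1. Its level was closer between the libraries, 2.00 TPM in replicate 2 and 1.82 TPM in replicate 1. The standard form without variable exons, Cd44-203, had 0.60 TPM in replicate 2 against 0.41 TPM in replicate 1, below Cd44-207 in both. Cd44-201, with 10 variable exons, had 0.03 TPM in replicate 2 against 0.15 TPM in replicate 1. The models are told apart by the exon that follows the constant part, printed in capitals and read on the minus strand.
Cd44-203, constant exon next: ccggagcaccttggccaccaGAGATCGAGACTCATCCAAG
Cd44-206, variable exon next: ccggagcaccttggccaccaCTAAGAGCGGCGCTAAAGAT
Cd44-207, variable exon next: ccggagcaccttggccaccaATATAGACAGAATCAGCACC
Cd44-201, variable exon next: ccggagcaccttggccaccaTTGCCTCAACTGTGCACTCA

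Only 26 of the 31-base words of Cd44-206 and 96 of those of Cd44-207 are found in no other transcript of the gene, so these shares rest on few distinguishing bases. Esrp1 and Esrp2, the splicing factors known to include Cd44 variable exons in epithelial cells, were near 0. Esrp1 had 0 counts in replicate 2 and 1 count in replicate 1, and Esrp2 had 2 counts in each.

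**Figure D3:**
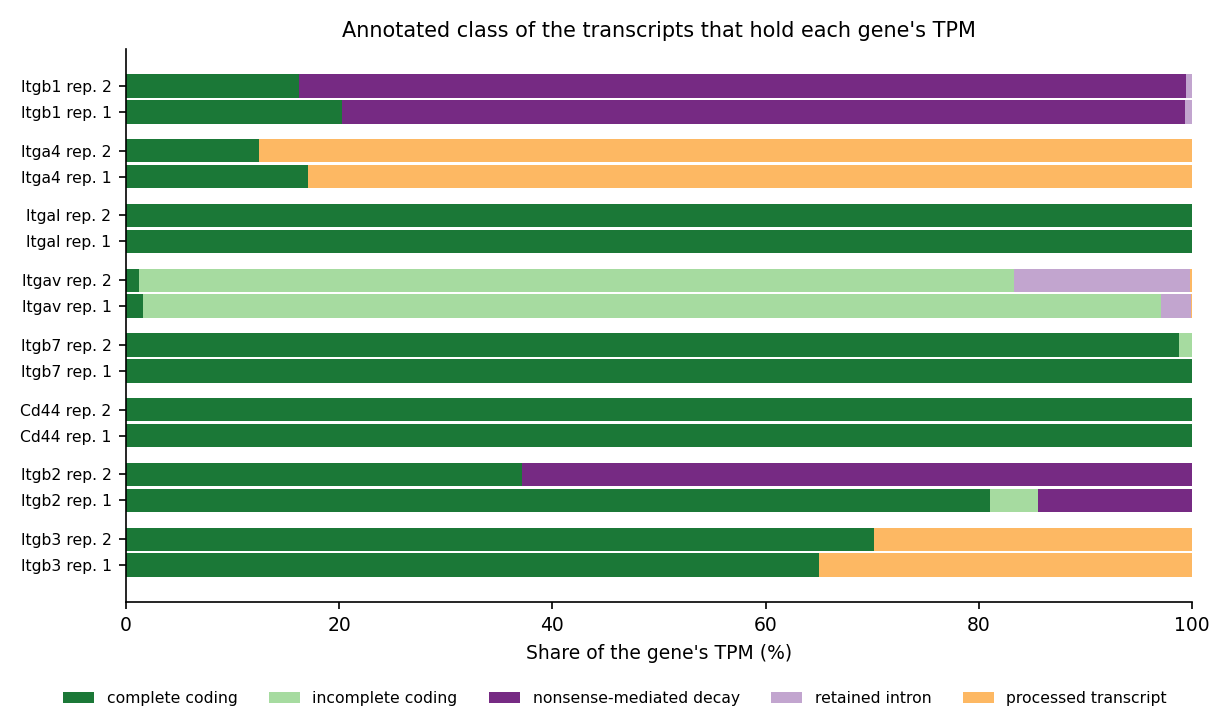
Share of each gene's TPM in percent by annotated transcript class, with replicate 2 above replicate 1 for each gene, and Itga5 and Itga6 left out for lack of counts. Itgal, Itgb7 and Cd44 are almost wholly complete coding, Itgb1, Itga4 and Itgav mostly not, and Itgb2 shows 37.1% complete coding in replicate 2 and 81.1% in replicate 1.

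In order of mean gene TPM the genes ran Itgb1, Itga4, Itgal, Itgav, Itgb7, Cd44, Itgb2, Itgb3, Itga6 and Itga5. The values of Itgal and Itgav overlapped, as did those of Cd44 and Itgb2, so neither pair was separated beyond its spread. Itgal and Itgav changed order between the libraries. Cd44 was above Itgb2 within each, 1.71 times in replicate 2 and 2.64 times in replicate 1. The other neighbours did not overlap, although 2 libraries of 1 biosample give no more than a range. By complete coding TPM the order began with Itgal, at 19.9 TPM in replicate 2 against 15.2 TPM in replicate 1, the shorter Itgal-203 included. Itgb1 was second, at 12.1 and 19.5 TPM, and its range overlapped that of Itgal. Taken alone, the leading model Itgal-205, at 11.5 and 11.6 TPM, lay below Itgb1 in both libraries. The first place of Itgal thus depended on its other models, Itgal-203 among them. Itgb7, Itga4 and Cd44 came next, then Itgb2. Itga4 overlapped both Itgb7 and Cd44, while Itgb7 lay above Cd44 without overlap. Itgb3 and Itgav followed and overlapped too, at 0.33 and 0.26 TPM for Itgb3 and 0.19 and 0.30 TPM for Itgav.

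The family as a whole had 18 alpha and 8 beta chains in the tables. Of the alpha chains 4 were detected and 8 had 0 counts in both libraries, while of the beta chains 2 were detected and 2 had 0 counts. Itgb1 held 85.4% of the TPM of all beta chains in replicate 2 and 92.0% in replicate 1. Itga4 held 35.2% of the TPM of all alpha chains in replicate 2 and 44.7% in replicate 1. Over complete coding transcripts these shares were 55.4% and 71.0% for Itgb1 and 12.7% and 23.1% for Itga4. The summed TPM was 101.2 for alpha and 87.7 for beta chains in replicate 2, and 96.0 for alpha and 104.5 for beta chains in replicate 1. The myeloid partner of beta2, Itgam, had 0 counts in both.

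The libraries were then set against each other on counts scaled by library size, with an exact two-sided binomial test per gene and Benjamini-Hochberg adjustment over 10863 genes. These p-values hold counting error alone, and 69.1% of all tested genes were called different, which is the share to read the following counts against. Of the 8 receptor genes tested 6 were called, 4 higher in replicate 2 and 2 higher in replicate 1, with adjusted p between 1.17e-64 and 1.8e-05 by the exact binomial test. With a coefficient of variation of 0.1 added to the test 2 were still called, Itgb2 and Cd44, against 18.5% of all genes. Itgal had a log2 ratio of 0.50, Cd44 of 0.68 and Itgb7 of 0.30, all higher in replicate 2. Itga4 had a log2 ratio of -0.37 and Itgb1 of -0.28, both higher in replicate 1. Itgav and Itgb3 missed the threshold, with log2 ratios of -0.07 and 0.38 and adjusted p of 0.472 and 0.0654 by the exact binomial test. Itgav was called as well over complete coding transcripts, with a log2 ratio of -0.57 and an adjusted p of 0.0192 by the exact binomial test, beside 73.3% of all genes. On that measure the log2 ratio was -0.62 for Itga4 and -0.59 for Itgb1.

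A difference beyond 2-fold was found for 1 of the 8, Itgb2, against 9.73% of all tested genes, 7.73% being higher in replicate 2. The scaled count of Itgb2 was 4.46 times higher in replicate 2, a log2 ratio of 2.16. Its log2 ratio over complete coding transcripts alone was 1.08, with an adjusted p of 2.44e-10 by the same exact binomial test, where 12.0% of all tested genes lay beyond 2-fold. Genes of granulocytes and macrophages, which carry beta2, were near 0 in both libraries. Mpo had 19 counts in replicate 2 and 2 in replicate 1, Prtn3 10 and 0, and Elane 2 and 0, while the macrophage gene Cd68 had 1.16 TPM in replicate 2 against 1.22 TPM in replicate 1. The summed TPM of their 12 markers was 1.83 in replicate 2 and 1.28 in replicate 1, with 7 of them at 0 counts in both, and their part in the Itgb2 difference was not tested.

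**Figure D4:**
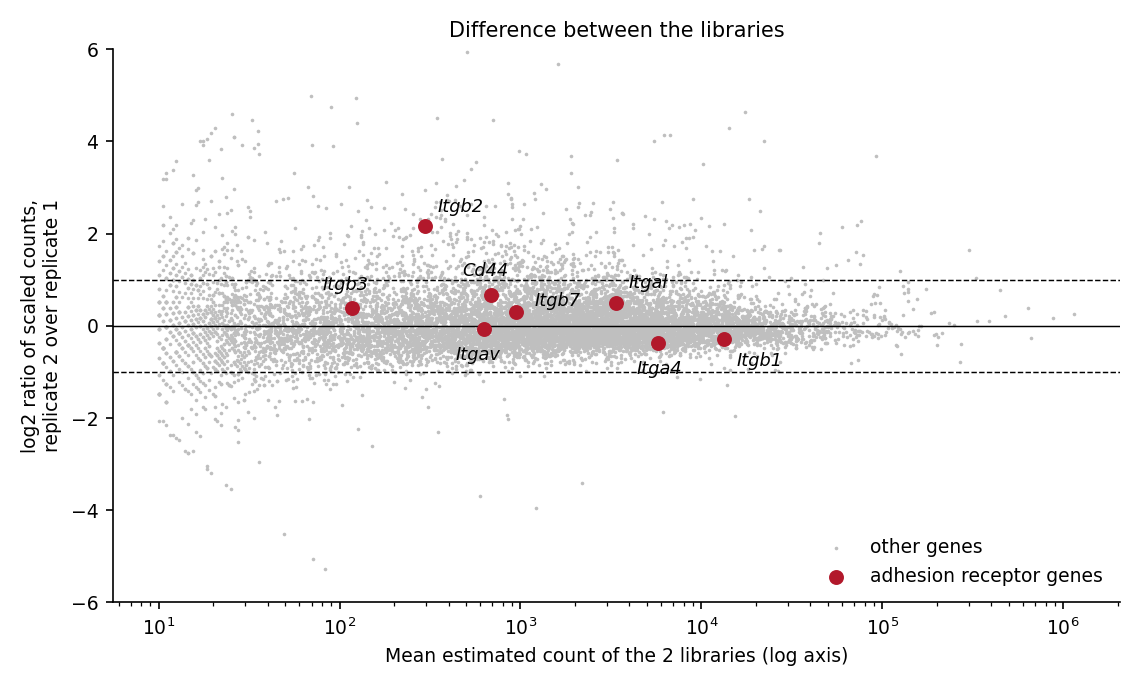
Log2 ratio of scaled counts, replicate 2 over replicate 1, against the mean estimated count on a log axis for the 10863 tested genes (grey; 10 lie outside the range shown) and 8 receptor genes (red), with dashed lines at 2-fold. Itgb2 alone of the receptor genes lies beyond a dashed line, at 2.16.

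Integrins bind only weakly until talin and a kindlin seize the beta tail from inside the cell. Of 26 activators and adhesion-site adaptors 15 were detected, with a median of 8.72 TPM over the list. Fermt3, the kindlin of blood cells, had 896 TPM in replicate 2 against 994 TPM in replicate 1. The other kindlins, Fermt1 and Fermt2, had 0 counts in both. Actn4 (alpha-actinin) had 399 TPM in replicate 2 against 319 TPM in replicate 1, the adaptor Zyx 207 and 191 TPM, and the talin gene Tln1 181 and 171 TPM. The scaffold of integrin-linked kinase, PINCH and parvin was uneven. Ilk had 27.7 TPM in replicate 2 against 30.7 TPM in replicate 1, and the PINCH gene Lims1 1.05 and 1.45 TPM. The other PINCH gene, Lims2, had 3 counts in replicate 2 and 1 in replicate 1. Parva and Parvg had 0 counts in both libraries, and Parvb had 0 in replicate 2 and 4 in replicate 1.

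Of 20 kinases, adaptors and GTPases that act downstream 14 were detected. Of the 16 tested between the libraries 2 lay beyond 2-fold by scaled counts, Rac2 and Ptk2, against 9.73% of all tested genes. Rac2, the Rac GTPase of blood cells, had 547 TPM in replicate 2 against 233 TPM in replicate 1. Csk, which restrains Src kinases, had 365 and 333 TPM, the adaptor Crk 125 and 161 TPM, and Rhoa 122 and 155 TPM. Focal adhesion kinase, encoded by Ptk2, had 7.06 TPM in replicate 2 against 3.72 TPM in replicate 1, below its relative Ptk2b at 22.6 and 13.4 TPM. Syk, which signals below beta2 and beta3 integrins in leukocytes and platelets, had 0 counts in both.

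Of 13 inactivators and recycling genes 12 were detected, the highest share of the lists around the receptors, with a median of 98.8 TPM. Nisch, whose product nischarin binds the alpha5 tail, had 167 TPM in replicate 2 against 198 TPM in replicate 1. Dok1, which competes with talin for beta tails, had 130 and 145 TPM. The recycling GTPases followed, with Rab11a at 117 and 152 TPM and Rab11b at 162 and 101 TPM. Of 15 tetraspanins and membrane partners 9 were detected, led by Bsg (basigin) at 848 TPM in replicate 2 against 1217 TPM in replicate 1. Cd81 had 154 and 104 TPM, Cd37 133 and 96.7 TPM and Slc3a2, which binds beta1 tails, 120 and 103 TPM. The tetraspanins Cd9 and Cd63 had 0 counts in both.

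Of 21 ligands 5 were detected in the cells themselves and 12 had 0 counts in both libraries. Vcam1 and Madcam1, the cell-bound ligands of alpha4beta1 and alpha4beta7, were among those at 0, and Fn1 (fibronectin) had 2 counts in replicate 2 and 3 in replicate 1. Tgfb1, whose latent form is held by alphav integrins, had 1663 TPM in replicate 2 against 2022 TPM in replicate 1. Icam4, a red cell ligand of alphav integrins, had 22.4 TPM in replicate 2 against 11.4 TPM in replicate 1. Icam2, a ligand of LFA-1, had 64.1 and 50.9 TPM, and the laminin chain gene Lama5 30.2 and 27.8 TPM.

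Of 17 CD44 linkers and hyaluronan genes 9 were detected. Of the 10 tested between the libraries 3 lay beyond 2-fold, Msn, Srgn and Hyal3, against 9.73% of all tested genes. Ezr (ezrin) had 308 TPM in replicate 2 against 337 TPM in replicate 1, and Slc9a3r1, an adaptor of the ezrin family, 272 and 239 TPM. Rdx (radixin) had 59.4 and 93.8 TPM, and Nf2 (merlin), which opposes the family, 74.7 and 80.0 TPM. Msn (moesin) had 68.3 TPM in replicate 2 against 22.8 TPM in replicate 1, and Srgn, the proteoglycan serglycin that CD44 can bind, 10.8 and 1.85 TPM. Hyal3, of the hyaluronidase family, was not detected and rested on 19 counts in replicate 2 and 6 in replicate 1. All 3 were higher in replicate 2, as were 840 of the 1057 tested genes beyond 2-fold. Has1 and Has2, which make hyaluronan, had 0 counts in both. So did Ptprc, the CD45 phosphatase of nucleated blood cells.

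Of 19 other adhesion receptors of erythroid cells 7 were detected. Cd24a, a surface marker of erythroblasts, had 207 TPM in replicate 2 against 333 TPM in replicate 1, and the sialomucin Cd164 152 and 200 TPM. Sema4d had 79.8 and 76.3 TPM. Maea, which encodes the erythroblast macrophage protein, had 79.4 TPM in replicate 2 against 47.1 TPM in replicate 1. The chemokine receptor gene Cxcr4 had 0 counts in both. Each of these 4 detected genes lay above Itga4 in both libraries, and Cd24a and Cd164 lay above Itgb1 as well.

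Between the libraries the tested genes of these lists went both ways, beside 69.1% of all genes called. By the same binomial test, of 18 activators and adaptors 11 were called higher in replicate 2 and 5 higher in replicate 1, and of 16 kinases, adaptors and GTPases 5 and 8. Of 12 inactivators and recycling genes 4 were called higher in replicate 2 and 5 higher in replicate 1, of 9 tetraspanins and partners 5 and 4, and of 7 ligands 2 and 1. Of 10 CD44 linkers and hyaluronan genes 6 were called higher in replicate 2 and 2 higher in replicate 1, and of 8 other adhesion receptors 3 and 4. Beyond 2-fold also lay Actn1, Cd151 and Icam4, each the only such gene of its list, against 9.73% of all tested genes. Of these Actn1 was not detected and rested on 39 counts in replicate 2 and 27 in replicate 1. The levels of these lists are gene TPM, as for the receptors. Of their 72 detected genes 13 (18.1%) had under 50% of it in complete coding transcripts in both libraries, against 23.7% of all detected protein-coding genes. Among the genes given above these were Itga2b, Ezr, Rab11a, Rab11b, Cd37 and Cd164. Rab11a had 8.13% in replicate 2 and 5.30% in replicate 1. Sharpin, an inhibitor of integrin activation, had the lowest share, 0.62% in replicate 2 and 0.80% in replicate 1.

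**Figure D5:**
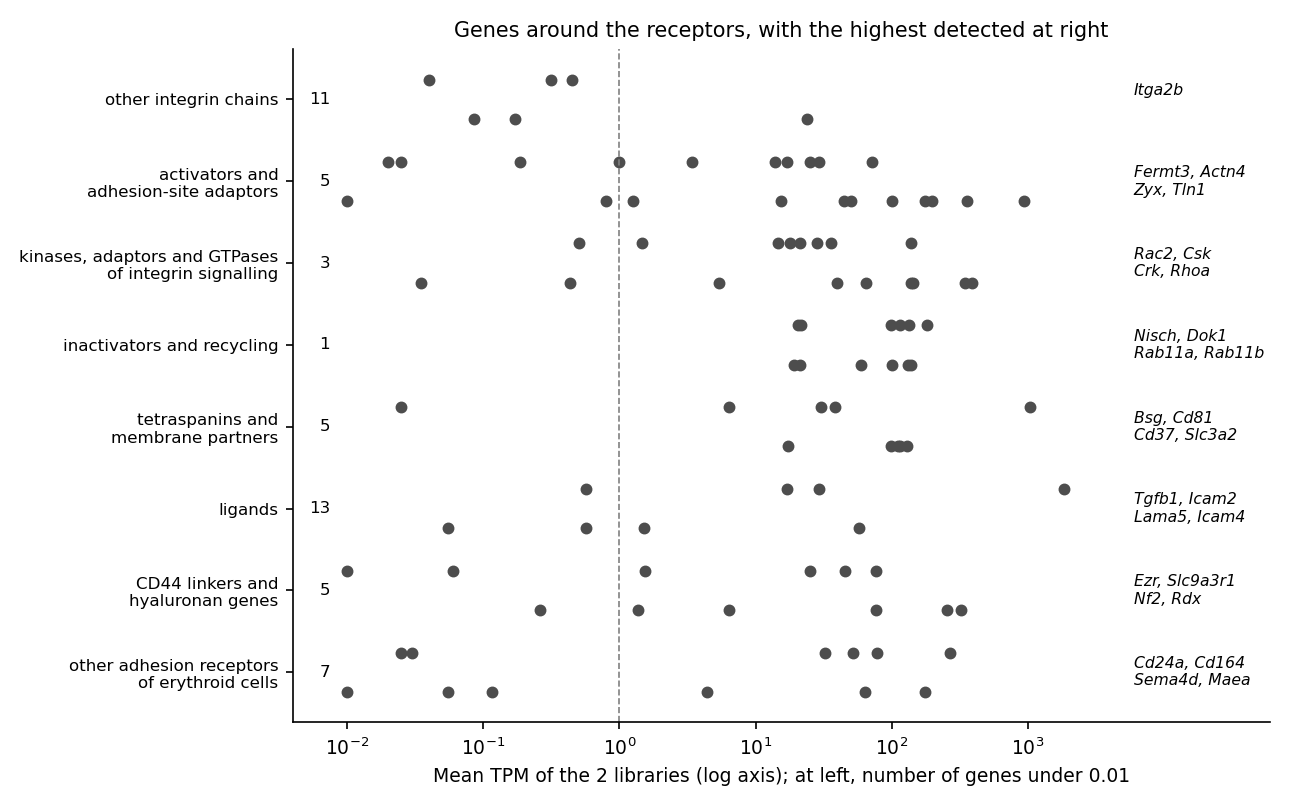
Mean TPM of the 2 libraries on a log axis for each gene of the lists around the receptors, with a dashed line at 1 TPM, the number of genes under 0.01 TPM at left and the highest detected genes named at right. Of the 17 other integrin chains Itga2b alone lies above 1 TPM, while all but 1 of the recycling genes do.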

How the data were processed

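Polyadenylated RNA of G1E-ER4 cells was sequenced from both ends, in 1 group of 2 libraries, replicates 2 and 1. Per the file headers and readme files, the authors deposited estimated counts, TPM, FPKM and effective lengths per gene and transcript, quantified on mm10 with GENCODE M4. Isoform shares, each transcript's percent of its gene's TPM, and the posterior SD of each count, a score, are as deposited by the authors. Aligner, quantifier and use of strand are, in the sources used here, not given, so overlapping genes on opposite strands are uncertain.

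Symbols, coordinates, transcript classes and sequences came from GENCODE M21 (same build), and 42462 of 43346 Ensembl genes matched. Of the 50 transcripts of the 10 genes, all matched and 47 had the same length in M21. Of 227 listed symbols 1 found no match. Words of 31 bases were compared over all M21 transcripts. The genes and lists were chosen with earlier results of these data known.

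Estimated counts were rounded and tested per gene between the libraries by an exact two-sided binomial test (scipy 1.17.1). TMM sizes came from edgeR 4.0.16 in R 4.3.3. The test was run on simulated counts with counting error only, which cannot show whether it suits libraries with further spread. Genes averaging at least 10 counts entered, with Benjamini-Hochberg adjustment at 0.05. Depths of 51923117 and 68901065 counts leave spread, not depth, as the limit for abundant genes. Named genes were all 10 receptor genes, other detected integrin chains, the 4 highest detected of each list, detected markers, and transcripts with a mean share of at least 10%. Other named genes, at 0, differing between the libraries or low in complete coding transcripts, were chosen after their values were seen. Some marker genes the rule names are not reported. Likeness of pattern was not computed over 2 libraries. Alternatives were other detection levels, FPKM, posterior means, DESeq2 1.42.0 size factors, other count minimums, and 1 library alone.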

Additional observations from a re-analysis of the deposited data

How the results depend on the processing

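The number of detected genes was 6 and lay between 4 and 7 at minimums of 0.5 to 10 TPM, with FPKM or with posterior means, and was 5 over complete coding transcripts only, an alternative chosen after seeing the data. Counting on 1 library alone gave 6 to 7 detected genes and 8 to 9 of the 9 neighbours in the same order. The number called between the libraries was 6 by TMM and by DESeq2 size factors and 7 by library totals, which shift the median log2 ratio of all genes to -0.12, and 7 over complete coding transcripts. In both cases Itgav was the gene gained, with adjusted p of 0.0491 and 0.0192 by the exact binomial test. It fell to 2 with a coefficient of variation of 0.1 added, where 18.5% of all genes were called. Over complete coding transcripts the mean ratio of Itga4 to Itgb1 was 0.371 against 0.461, that of Itga4 to Itgb7 0.834 against 5.49, that of Itgav to Itgb1 0.0155 against 0.204 and that of Itgav to Itgb3 0.865 against 41.2. The same ratios moved by less than the spread with posterior means or FPKM. By share of counts 2 in place of 3 detected genes had under 50% in complete coding transcripts in both libraries, Itga4 having 56.8% in replicate 1. Itgb3, Itga5, Itga6 and, in replicate 1, Itgb2 rest on few counts, and transcript shares rest on the few bases in which models differ. No paired analysis was possible because both libraries belong to 1 group.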
